A study of Homo sapiens with 30 samples.

Results

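The regions described here are the places where TET1 was called by ChIP-seq in HEK293T cells without and with auxin, which was used to remove CTCF. They were taken from 2 pooled peak lists, by joining rows of a list that shared at least 1 bp and then comparing the lists base by base. The list without auxin held 16246 regions and the list with auxin 325, together 16571 of the 70565 regions in the 8 lists of the series. A region present in both lists by 1 bp or more is called kept. A region of the first list alone is called lost (no longer called in the figures), and a region of the second list alone is called new (called with IAA only in the figures). By this rule 36 regions were kept, 16210 were lost and 289 were new. The words lost, new, earlier and former compare the 2 lists and not 2 times, since both groups were sampled at 72 h. Positions are given in hg19 as the lists place them, counted from 1.

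HEK293T is an established line from human embryonic kidney. In both groups the cells had an edited CTCF and were co-transfected with the plasmids pcDNA3.1-ScFv-miniIAA7-mEGFP and pcDNA3.1-AtAFB2-mCherry, where miniIAA7 is an auxin-dependent degron and AtAFB2 an auxin receptor. The groups differed in the medium of the following 72 h, which held 0.5 mM indole-3-acetic acid (IAA, the auxin) or none. The treatment label of the group without IAA reads DMSO, and the labels do not say whether the edited cells were a single clone. Each group had 3 samples, and each list pools the 3, so there is no value per sample, no replicate error and no test between conditions.

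TET1 is a dioxygenase that oxidises 5-methylcytosine, a first step of active DNA demethylation. Its CXXC domain binds CpG-rich DNA, and the protein is known mainly from unmethylated promoters and from sites where other proteins recruit it. CTCF is a zinc-finger protein that binds a long motif, insulates neighbouring domains and anchors chromatin loops. MBD3 is a subunit of the NuRD complex, which joins nucleosome remodelling with histone deacetylation. TET2 is a related dioxygenase without a CXXC domain of its own.

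Almost the whole TET1 list went uncalled with IAA. Of the 16246 regions, 0.222% were kept (Wilson 95% interval 0.160% to 0.307%). This share is the background for each count of kept regions given further on, and it moved with the filter. It was 0.0788% at a −log10 q of 5 or more, 0.0611% at a fold of 5 or more, and 13 of 325, or 4.0%, when equal numbers of regions of highest −log10 q were compared. Seen from the other list, 36 of 325 regions were also in the list without IAA, or 11.1%. All intervals in the text are Wilson 95% intervals and cover counting error over regions only. Read depth is unknown for every list, and depth affects how many regions a caller finds. Its part in the loss was not tested. CTCF itself went from 42925 to 63 regions between the same conditions, while TET2 went from 1326 to 3022.

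The lost regions were short, single and mostly at CTCF. Their median width was 197 bp (quartiles 170 and 236 bp), the narrowest 145 bp and the widest 3003 bp. Only 183 of the 16210, or 1.13%, were joined from more than 1 row, and 90 reached 500 bp. Where TET1 and CTCF were called together without IAA, at 14798 sites, the TET1 region was the narrower in 97.3% of cases. Its median was 199 bp against 352 bp for CTCF, and 91.4% of these TET1 regions lay wholly inside the CTCF region. TET1 regions widened with their fold enrichment, the ratio of signal to local background that the authors' peak caller gives. Over 10 strata of fold the median width was 180 bp in the weakest, 174 bp at its lowest in stratum 3 and 244 bp in the strongest.

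Widths also differed with the company TET1 kept. Without IAA, 11304 TET1 regions, or 69.6%, had CTCF alone of the other 3 antibodies, with a median width of 190 bp (quartiles 167 and 223) and a median fold of 7.17. A further 3236, or 19.9%, had CTCF and MBD3, at 232 bp (quartiles 201 and 272) and 10.2-fold. The 133 regions with CTCF, MBD3 and TET2 were the widest, at 284 bp (quartiles 214 and 361), but their median fold was only 5.88. At the other end stood 965 regions, or 5.94%, with none of the 3. These had a median width of 178 bp, a median fold of 4.16 and a median −log10 q of 2.99, against 13.4 for the regions with CTCF alone. The q-value is the authors' measure of confidence in a peak, and the lowest −log10 q in the list was 1.30. Away from CTCF, the nearest CTCF region was within 1 kb for 179 of 1434 TET1 regions on sequences that had any CTCF region, or 12.5%.

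The lost regions of highest −log10 q were 2 CTCF sites on chromosome 17 without MBD3 or TET2. The first, at chr17:45973080-45973665, was 586 bp wide with 40.3-fold enrichment and a −log10 q of 452. The second, at chr17:17875591-17876396, was 806 bp wide with a −log10 q of 268 and was also among the 5 widest on chromosomes 1 to 22 and X. Next came chr7:102212890-102213174, where all 4 antibodies were called without IAA, with 15.1-fold and a −log10 q of 222. Only the fourth, at chr5:111496319-111496609, had a CTCF region with IAA. The widest lost region of these chromosomes lay at the start of the listed part of chromosome 5, at chr5:10061-11739. It was 1679 bp wide, was joined from 6 rows and had TET2 in both conditions. The other widest regions were at chr1:236877035-236878276 (1242 bp), chr5:139780637-139781478 (842 bp) and chr14:21081491-21082306 (816 bp), all at CTCF.

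Kept regions were wider than lost regions within the list without IAA. Their median width there was 271 bp (quartiles 228 and 336), and 13 of 36, or 36.1% (22.5% to 52.4%), reached 300 bp, against 7.28% (6.89% to 7.69%) of the lost regions. With the list cut into 4 strata by width, 2 of 4125 regions up to 170 bp were kept, 2 of 4001 from 171 to 197 bp, 9 of 4118 from 198 to 237 bp and 23 of 4002 from 238 bp upward. The last of these is 0.575% (0.383% to 0.861%). A wider region has more bases that can touch another, so the rule itself favours width. With IAA the same 36 places had a median width of 196.5 bp, and 29 of the 36 were wider without IAA than with it. In 22 of the 36 the region with IAA lay wholly inside the earlier one.

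**Figure D1:**
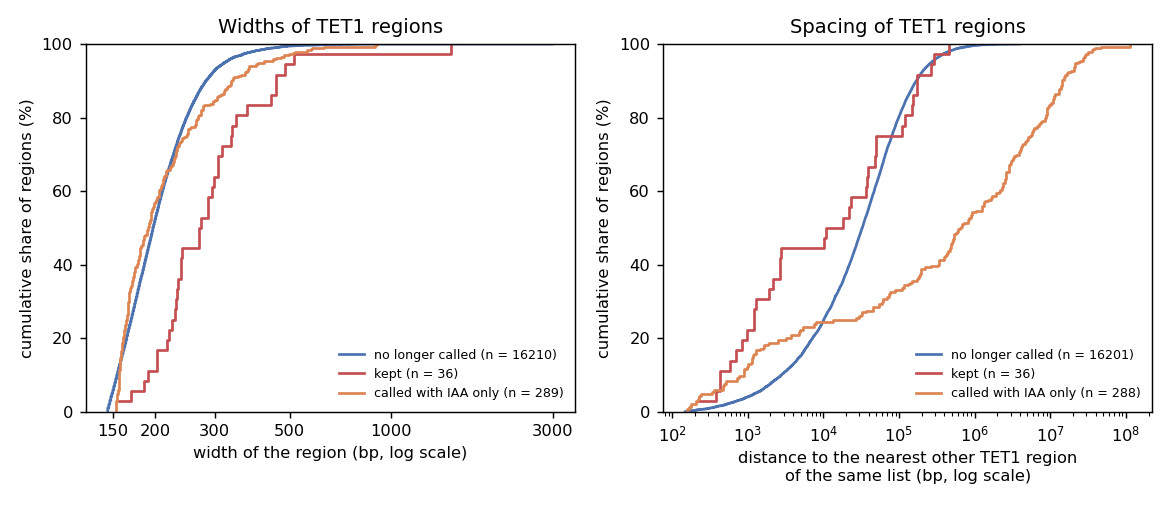
Left, cumulative share of TET1 regions (vertical axis, %) by width (bp, log scale); right, by distance to the nearest other region of the same list (bp, log scale), with kept regions taken from the list without IAA. The curve of kept regions lies to the right for width (median 271 bp against 197 bp for lost and 191 bp for new), and the curve of new regions goes from 24.2% at 10 kb to only 32.9% at 100 kb.

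The kept regions fell into 2 kinds when set out by fold and −log10 q, a division made at 3-fold after the values were seen. Without IAA, 12 had a fold under 3 and 24 a fold of 3 or more. A fold under 3 was rare in the list, at 198 of 16246 regions. Of these 198, 12 were kept, or 6.06% (3.50% to 10.3%), against 24 of 16048 others, or 0.150% (0.101% to 0.222%). For the 12 kept regions, low fold did not mean low confidence. They had −log10 q between 11.8 and 290, with a median of 41.0, while their fold was 1.33 to 2.50. The 186 lost regions under 3-fold had a median −log10 q of only 2.78, against 14.3 for lost regions of 3-fold or more. Some of these 186 were also called with high confidence, up to a −log10 q of 187. By −log10 q alone, 20 of the 36 came from the top 10% of the list, where 1.23% (0.798% to 1.89%) were kept. Of the 49 regions with a −log10 q of 100 or more, 7 were kept.

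**Figure D2:**
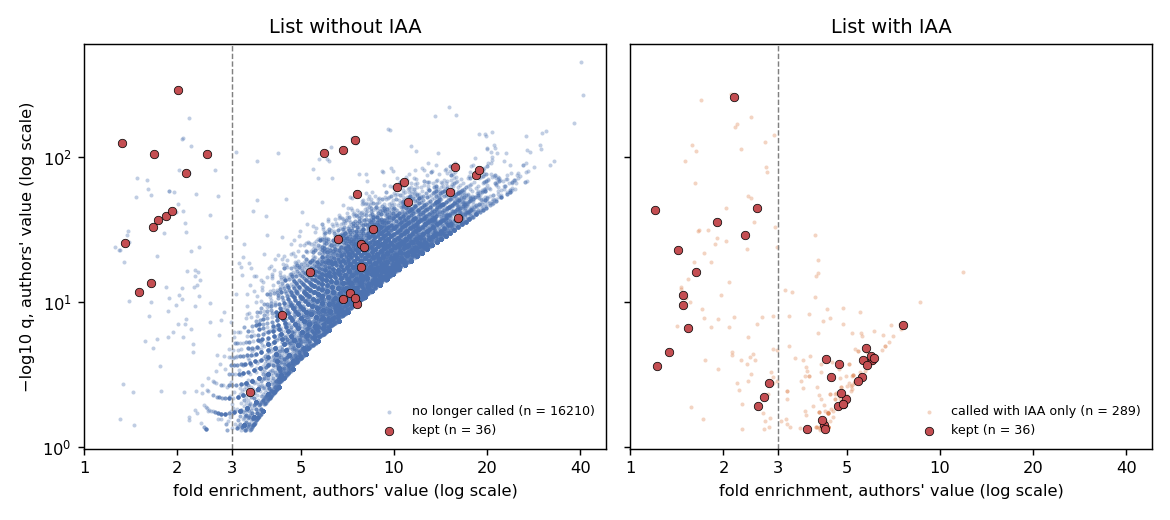
Fold enrichment (horizontal, log scale) against −log10 q (vertical, log scale) of each TET1 region, both the authors' values, in the list without IAA (left) and with IAA (right). Kept regions are ringed, and the dashed line marks 3-fold. On the left 12 kept regions lie left of the line at −log10 q of 11.8 to 290, apart from the main cloud. Lost regions under 3-fold lie there too, up to a −log10 q of 187.

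The 12 kept regions of low fold lay at a few places, mostly beside long stretches without any region, where other antibodies were called too. Of the 12, 10 were on chromosomes 1 to 22 and X and 2 on the mitochondrial genome. On the chromosomes, 9 of the 10 lay within 100 kb of the longest stretch without any region of the 8 lists. On 19 of 23 chromosomes that stretch was at least 3.0 Mb long, and on most of them it spans the centromere. Short reads do not resolve centromeric repeats, and why these stretches hold no region was not tested. In the whole list without IAA, 50 regions lay so close to such a stretch, and 9 of them were kept, or 18.0% (9.77% to 30.8%), against 25 of the other 16069, or 0.156%. The edges of a stretch are set by regions of the same 8 lists, TET1 included, so some closeness is built into this measure. All 12 kept regions of low fold had TET2 without IAA, 11 had MBD3 without IAA and 11 had MBD3 with IAA. TET2 without IAA was also at 56 of the 186 lost regions under 3-fold, against 437 of all 16210 lost regions. With IAA, TET2 was called at only 1 of the 12. CTCF was called at 6 of them without IAA and at 7 with IAA. Summits were close in the 2 lists, at a median of 6.5 bp apart (quartiles 5 and 28 bp).

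Named in order, these low-fold regions began with chr1:121485048-121485384 (1.33-fold without IAA and 1.20-fold with IAA). Chromosome 10 had 3 neighbours, at chr10:42398539-42398824, chr10:42399255-42399484 and chr10:42400194-42400709. Chromosome 2 also had 3 neighbours, at chr2:92316209-92316692, chr2:92318827-92319134 and chr2:92320344-92320659, where CTCF was not called without IAA. The others on the chromosomes were at chr11:51590347-51590633, chr19:27731968-27732315 and chr9:67320523-67320895. The region on chromosome 19 had the highest −log10 q of all kept regions in both lists, at 290 without IAA and 260 with IAA, although its fold was 2.01 and 2.16. On the mitochondrial genome the kept regions were at chrM:3854-4161 and chrM:15021-16522, the latter 1502 bp wide and joined from 5 rows. The mitochondrial genome had 14 TET1 regions without IAA in all.

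The 24 kept regions of 3-fold or more were all at CTCF sites. Their fold without IAA was 3.43 to 18.8, with a median of 7.71, against 7.32 for the lost regions. No region of this fold away from CTCF was kept, of 1357, which allows a share of up to 0.282%. At CTCF it was 24 of 14691, or 0.163% (0.11% to 0.243%), so the intervals overlap. With IAA these regions stood near the limit of calling, at −log10 q of 1.33 to 6.97 with a median of 2.82. CTCF was called with IAA at only 2 of them, at chr11:116662031-116662269 and at chr12:94140-94475. MBD3 and TET2 were called with IAA at none of the 24. Without IAA, 10 of the 24 had MBD3 and 3 had TET2. Their summits were farther apart than those of low fold, at a median of 37 bp (quartiles 22.8 and 89.5 bp).

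Of these 24, the highest fold without IAA was at chr6:70506835-70507063, with MBD3 and TET2 besides CTCF. It was 18.8-fold with a −log10 q of 81.4 without IAA, and 6.01-fold with a −log10 q of 4.23 with IAA. At chr12:56367408-56367862, 18.4-fold and a −log10 q of 75.4 stood against 5.78-fold and 4.81. Chromosome 17 had 3 kept regions, at chr17:26368324-26368778, chr17:34476334-34476631 and chr17:55038357-55038596, with 10.8-, 15.8- and 15.2-fold without IAA. Chromosome 15 also had 3, at chr15:67546983-67547215, chr15:79202226-79202411 and chr15:89901892-89902331. On chromosome 16 they were at chr16:639719-639952, chr16:2301553-2301791 and chr16:17421268-17421484. The last of these was the weakest of the 24 without IAA, at 3.43-fold and a −log10 q of 2.38. The others were at chr2:85154208-85154377, chr4:190714254-190714456, chr8:86375456-86375658, chr19:51672649-51672873, chr20:48563554-48563773 and chrX:104166886-104167158, with 5.37- to 16.1-fold without IAA. The highest −log10 q with IAA among the 24 was 6.97, at chr2:87303570-87303726, a region of 4.36-fold and a −log10 q of 8.19 without IAA.

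The overlap was barely met at some of these places. The region at chr1:249200582-249200772 shared only 17 bp with that at chr1:249200444-249200598. The regions chr16:2301553-2301791 and chr16:2301758-2301952 had summits 239 bp apart, the farthest of all 36. When 50% of both regions had to overlap, 28 of the 36 were kept, and with summits within 200 bp it was 34.

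The 5 places just outside the rule can be set beside them. The new regions nearest to an earlier TET1 region lay 97 bp away at chr1:109289402-109289566 and 364 bp away at chr19:10380781-10380935. The next were 410 bp away at chr10:31320560-31320732, 489 bp away at chr5:151150329-151150531 and 685 bp away at chr2:85293154-85293319. Their folds were 4.25 to 5.89 and their −log10 q 1.33 to 3.62, values within the range of the 24 kept regions with IAA.

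The other antibodies were spread unevenly over the classes. CTCF without IAA was at 91.1% of lost regions (90.7% to 91.5%) and at 30 of 36 kept regions, or 83.3% (68.1% to 92.1%). MBD3 without IAA was at 23.2% of lost regions and at 21 of 36 kept regions, or 58.3% (42.2% to 72.9%). TET2 without IAA was at 2.70% of lost regions (2.46% to 2.96%) and at 15 of 36 kept regions, or 41.7% (27.1% to 57.8%). Counted the other way, 15 of the 452 TET1 regions with TET2 were kept, or 3.32% (2.02% to 5.40%), against 21 of the 15794 without TET2, or 0.133% (0.0870% to 0.203%). Leaving out regions of fold under 3 left 3 of 384, or 0.781% (0.266% to 2.27%), against 0.134% (0.0877% to 0.205%). For MBD3 the same step left 10 of 3710 with it, or 0.270% (0.146% to 0.495%). Without MBD3 it was 14 of 12338, or 0.113% (0.0676% to 0.190%), so these intervals overlap. With IAA, CTCF was at 44 lost regions, MBD3 at 3 and TET2 at 20, of 16210.

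**Figure D3:**
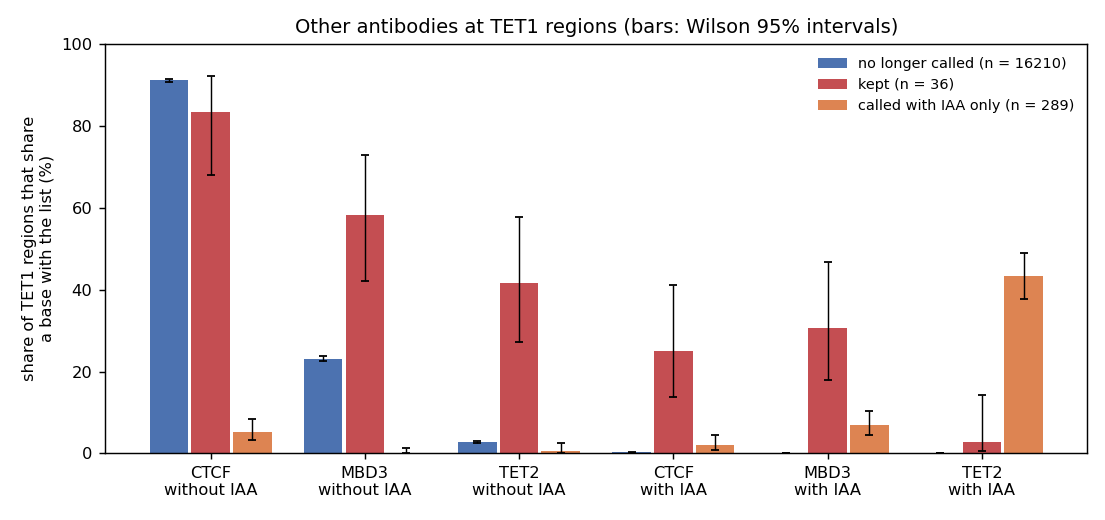
Share of lost, kept and new TET1 regions (vertical axis, %) that share at least 1 bp with each list of CTCF, MBD3 and TET2 in the 2 conditions; error bars are Wilson 95% intervals. Lost regions are high for CTCF without IAA alone (91.1%), and new regions for TET2 with IAA alone (43.3%). The lists with IAA differ in length, at 3022 regions for TET2, 63 for CTCF and 50 for MBD3. Of the kept regions, 83.3% had CTCF, 58.3% MBD3 and 41.7% TET2 without IAA, and 5 had MBD3 and TET2 but no CTCF. Of the 24 kept regions of 3-fold or more, 10 had MBD3 and 3 had TET2 without IAA.

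New regions were seldom at former CTCF sites and often under TET2 with IAA. Of the 289, 125 shared a base with a TET2 region with IAA, or 43.3% (37.7% to 49.0%), 20 with MBD3 with IAA and 6 with CTCF with IAA. These lists held 3022, 50 and 63 regions, so the 3 counts do not compare the antibodies directly. Only 2 lay at a TET2 region without IAA and 0 at MBD3 without IAA, which allows up to 1.31%. With the kept regions, 126 of the 325 TET1 regions with IAA touched TET2, which is 38.8% of the TET1 list, while 123 of the 3022 TET2 regions touched TET1, or 4.07%. Whether the 2 lists share a control is not stated in the labels. The 161 new regions with no other antibody had a median width of 178 bp, 4.50-fold enrichment and a median −log10 q of 2.14. The 107 with TET2 alone were wider, at 212 bp (quartiles 166 and 302), with 3.16-fold and 4.74.

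New regions were of about the same median width as lost ones but more of them were wide. Their median was 191 bp (quartiles 165 and 247), the narrowest 153 bp and the widest 906 bp. At 300 bp or more stood 45 of 289, or 15.6% (11.8% to 20.2%), against 7.28% of the lost, although the widest lost region was the wider at 3003 bp. Of the new regions, 26 were joined from more than 1 row. The widest were a pair at chr19:55625937-55626833 and chr19:55627309-55628214, of 897 and 906 bp, 475 bp apart. They were joined from 4 rows each and had 1.40- and 1.50-fold enrichment. TET2 with IAA was at both, and at the other 3 of the 5 widest, at chr4:49151178-49151810, chr4:182162307-182162890 and chr16:46424630-46425207.

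The new regions of highest −log10 q were narrow and of low fold. The first was at chr10:42395986-42396183, 198 bp wide, with a −log10 q of 273 at 2.11-fold, 2355 bp from the nearest TET1 region without IAA. The second, at chr10:42596949-42597159, had 251 at 1.70-fold. CTCF, MBD3 and TET2 were all called with IAA at these 2 and none of them without IAA. The others of the first 5 lay at chr2:92269428-92269586, chr10:42388297-42388455 and chr10:42387231-42387392, with 189, 169 and 161, and had TET2 with IAA.

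By fold, 78 new regions were under 3 and 211 at 3 or more. The 78 had TET2 with IAA in 66 cases, or 84.6%, and another TET1 region within 10 kb in 60 cases, or 76.9%. Of the 211, 59 had TET2 with IAA, or 28.0%, and only 10 had a neighbour within 10 kb, or 4.74%. On chromosomes 1 to 22 and X, 33 of 71 new regions of low fold were within 100 kb of a longest stretch without regions, and 0 of 207 of higher fold. Lost regions showed a similar contrast at a lower level: 29 of 156 under 3-fold were that close to such a stretch, and 12 of 15929 at 3-fold or more.

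The 15 new regions at former CTCF sites were close to the middle of the new regions in strength. Their TET1 fold was 2.70 to 6.12 with a median of 4.75, against 4.25 over all new regions. Their −log10 q was 1.33 to 6.15 with a median of 2.62, against 2.86. CTCF there had a median of 5.93-fold without IAA, from 2.08 to 24.4, against 13.6 over all CTCF regions. TET1 and CTCF summits were a median of 101 bp apart (22 to 306 bp). The TET1 region of highest −log10 q among them was at chr12:2629403-2629722, where CTCF had 2.36-fold. In general a new region lay a median of 61972 bp from the nearest earlier TET1 region (quartiles 20095.5 and 161533.5 bp) and 24104 bp from the nearest earlier CTCF region. Within 10 kb of an earlier TET1 region lay 37 of 287 on sequences shared by the lists, or 12.9% (9.50% to 17.3%).

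Lost regions were moderately clustered. Of the 16210, 4004 had another TET1 region of their list within 10 kb, or 24.7% (24.0% to 25.4%), and the median gap to the nearest one was 32750 bp. Of the kept regions it was 16 of 36, or 44.4% (29.5% to 60.4%), with a median gap of 14423.5 bp, and 11 of these 16 were of low fold. Linked by gaps of at most 10 kb, 4000 of them formed 1793 clusters, of which 1515 were pairs and 217 were triplets. Clusters of 7 or more were rare, at 7 in all. In the whole list without IAA the share with a neighbour ran from 21.8% to 30.9% over the 10 strata of fold, the highest in the weakest stratum. By company in the same list it was 49.1% for the 116 regions with MBD3 and TET2 but no CTCF, and 23.7% for those with CTCF alone.

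Of the 5 lost clusters measured, that with the most even steps lay at chrX:114960442-115002438, and held 15 TET1 regions, 12 lost and 3 kept. From summit to summit the 14 steps measured 2965 to 3010 bp, with a median of 2985.5 bp. All 15 were at CTCF and 14 at MBD3 without IAA. Their widths were 154 to 310 bp, their fold 2.88 to 9.70 and their −log10 q 28.1 to 157. With IAA, CTCF was called at 2 of the 12 lost regions and at none of the 3 kept ones. The kept regions of the array lay at chrX:114984324-114984592, chrX:114987296-114987590 and chrX:114996249-114996517. With IAA these had 2.80-, 2.58- and 2.71-fold and −log10 q of 2.78, 1.92 and 2.22. A new region at chrX:115004644-115004907 lay 2205 bp past the end of the array, at TET2 with IAA and away from CTCF. Copies of a repeat share sequence, so reads there may map to more than 1 copy, and the labels do not say how such reads were handled.

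Chromosome 19 held the largest wholly lost cluster on chromosomes 1 to 22 and X, 16 regions at chr19:50594083-50650982. All 16 were at CTCF and 9 at MBD3. Their fold was 2.40 to 13.9 and their steps 855 to 8215 bp, and 6 of the 15 steps measured 5329 to 5371 bp. Whether the recurring step reflects a repeat was not tested, and the limit on reads from repeat copies may apply here too. A second cluster of 7 on this chromosome, at chr19:48407379-48427118, had steps of 1950 to 5448 bp. It included 1 of the 5 lost regions of highest −log10 q, at chr19:48423466-48423712 with 13.5-fold and 193. Chromosome X held a further 2 clusters, of 7 regions at chrX:130875141-130902431 and of 8 at chrX:130917635-130965117. Their steps were uneven, at 659 to 9613 bp and 682 to 10139 bp, and all 15 regions were at CTCF. None of the regions in these 4 clusters was kept, but clusters were picked by their number of lost regions, so this count carries little information.

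New regions were either isolated or in tight groups. As many as 24.2% (19.6% to 29.5%) had another region of their list within 10 kb, close to the 24.7% of the lost, although that list is 325 long. Their median distance to the nearest one was 651551.5 bp. Within 1 kb it was 35 of 289, or 12.1% (8.84% to 16.4%), against 3.99% (3.70% to 4.30%) of the lost. Without regions of fold under 3 the share within 10 kb was 2.84%. In all 69 new regions formed 20 clusters. The largest held 13 at chr16:46389575-46407035, with 1.41- to 2.28-fold, −log10 q of 6.89 to 114 and uneven steps of 413 to 4081 bp. A second group of 7 followed at chr16:46420355-46435498. Chromosome 10 had 8 at chr10:42378321-42396971, continued by the 3 kept regions named above. Every new region of these 3 groups touched TET2 with IAA, and none touched CTCF, MBD3 or TET2 without IAA. Next on chromosomes 1 to 22 and X came 4 regions at chr14:105696809-105700296, of which 3 touched TET2. Groups of 3 lay at chr1:2583695-2586901, chr7:157939673-157941298 and chr10:42596949-42599847, with TET2 with IAA at every region.

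**Figure D4:**
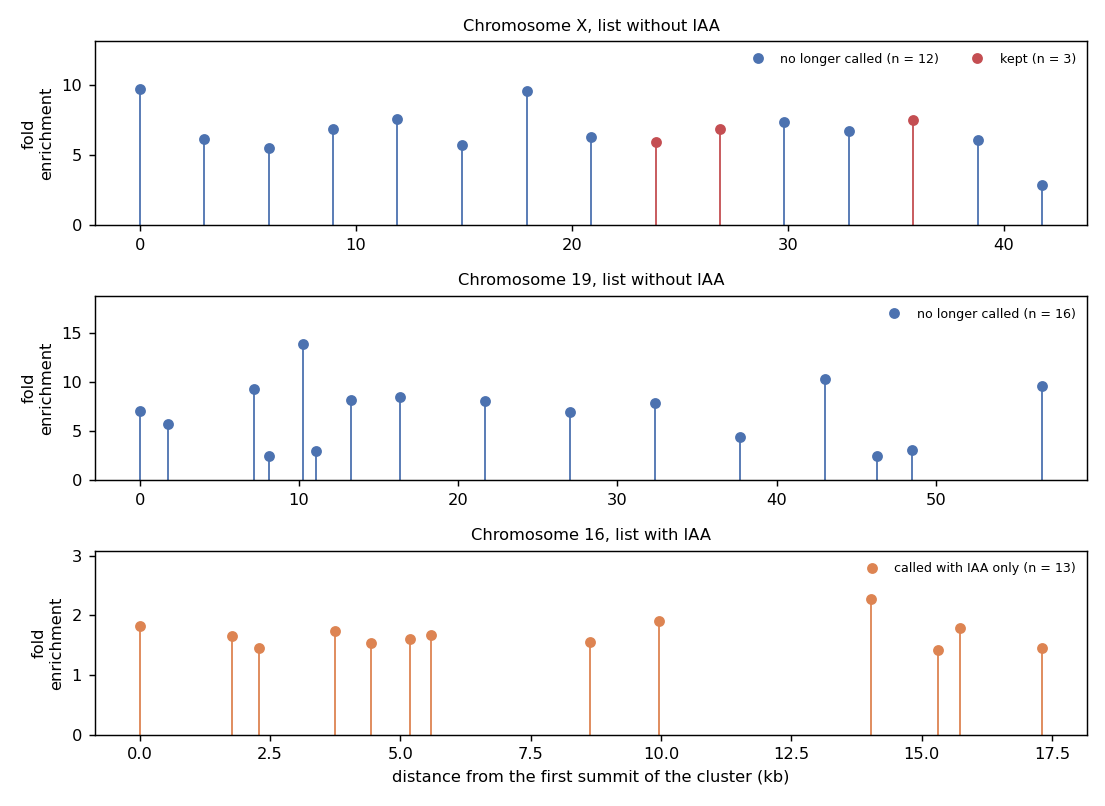
Fold enrichment (vertical) of each TET1 region by distance from the first summit of its cluster (kb, horizontal) for the chromosome X array and the chromosome 19 cluster in the list without IAA and the chromosome 16 cluster in the list with IAA. The 15 summits on chromosome X stand 2965 to 3010 bp apart, while steps in the other 2 clusters range more widely. On chromosome 19, 6 of the 15 steps measured 5329 to 5371 bp.

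By chromosome, the TET1 list without IAA was densest on chromosomes 19 and 17 and thinnest on chromosomes 21, X and 18. Density was 12.4 regions per Mb on chromosome 19, 11.3 on chromosome 17, 3.33 on chromosome 18, 3.30 on chromosome X and 2.97 on chromosome 21, over the length up to the highest listed position. Chromosome 1 held the most regions, 1740, or 10.7%. Set against CTCF, the number of TET1 regions per 100 CTCF regions ran from 30.4 on chromosome 3 to 48.1 on chromosome 10. HEK293T cells carry extra copies of some chromosomes, and the number of copies was not measured here.

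New regions followed another distribution. Chromosome 16 held 29 of 289, or 10.0%, against 3.01% of the list without IAA, and 20 of these 29 were in the 2 groups at chr16:46389575-46435498. Chromosome 10 had 24, or 8.30%, and chromosome 3 only 2, or 0.692%, against 4.46% of the earlier list. Kept regions were too few for such shares. The most were on chromosome 2, with 5, and chromosome X, with 4.

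**Figure D5:**
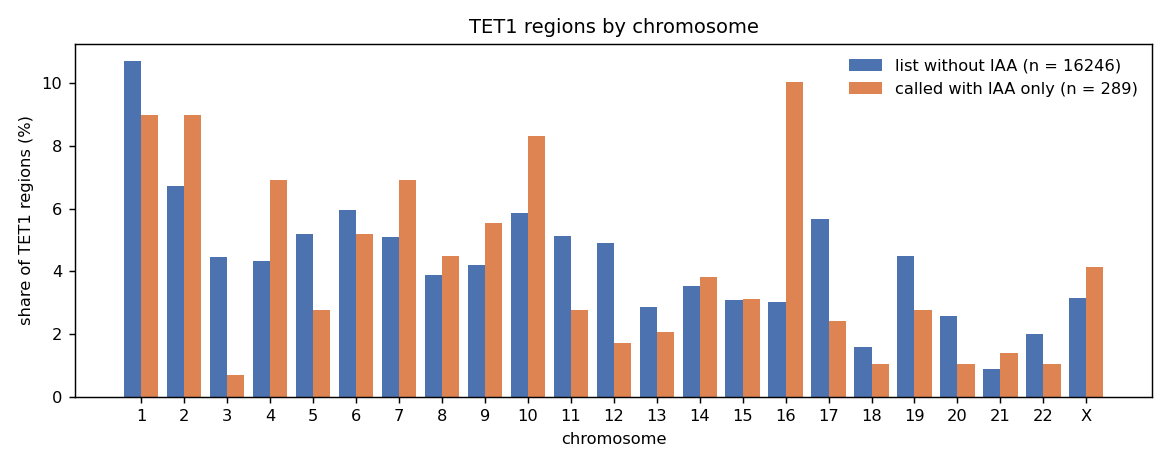
Share of TET1 regions (vertical axis, %) on each chromosome for the 16246 regions without IAA and the 289 new regions. New regions stand out on chromosome 16 (10.0% against 3.01%) and are few on chromosome 3 (0.692% against 4.46%).

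New regions were also nearer to chromosome ends. Of 278 on chromosomes 1 to 22 and X, 80 were within 5 Mb of an end, or 28.8% (23.8% to 34.4%), against 1489 of 16085 lost regions, or 9.26% (8.82% to 9.71%), and 9.19% of CTCF regions without IAA. Of 34 kept regions, 5 were, or 14.7% (6.45% to 30.1%). Within 2 Mb it was 54 of the 278, or 19.4%, and 4.12% of the lost. Chromosomes 4 and 7 held 12 each of the 80. The 80 touched TET2 with IAA in 45 cases, or 56.2%, and the other 198 in 71 cases, or 35.9%. Near a longest stretch without regions, the shares within 100 kb were 11.9% (8.58% to 16.2%) for new, 26.5% (14.6% to 43.1%) for kept and 0.255% (0.188% to 0.346%) for lost regions. The 33 new regions there came from chromosomes 16 (20), 10 (8), 2 (3) and 8 (2). Off these chromosomes, the mitochondrial genome held 12 lost and 2 kept regions and no new one, and unplaced, random or haplotype sequences held 108 lost, 10 new and 0 kept regions. The few lost and new regions that remain lay on chromosome Y.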

How the data were processed

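ChIP-seq peaks of TET1 were compared in HEK293T cells without and with IAA, 3 pooled samples each. Samples were put in groups by their titles. Per the submitters' processing notes the tools were FastQC 0.11.7, Bowtie2 2.3.4, SAMtools 1.9, MACS2 2.1.2 and bedtools 2.25.0 with the build hg19. The step each tool served, the read depth and the use made of the 3 input samples per condition are not given in the sources used here. The deposited lists give a fold enrichment (a ratio) and a −log10 q for each peak, all values of the authors' peak caller. They rank and filter regions within a list; where both lists' values are printed for a kept region they stand side by side, with no change computed or tested. Other columns used hold positions and the summit offset, and the deposited p-values were not used.

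Rows of a list sharing 1 bp were joined, and each joined region took the largest fold and −log10 q of its rows and the summit of the best row. Overlaps, gaps between edges and chains with gaps of up to 10 kb were computed with Python 3.11.15, pandas 2.3.3, numpy 2.4.6 and scipy 1.17.1, after a check on simulated data. Chromosome ends were position 1 and the largest coordinate found among the 8 lists. Coordinates are in hg19, counted from 1, and no gene annotation of that build was used. No p-value was computed, since regions are not replicates.

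Named regions, all on chromosomes 1 to 22 and X apart from 2 kept ones, were the kept regions, the 5 lost and 5 new of highest −log10 q, the 5 widest of each, the 5 largest clusters of each (ties included) and the 5 new regions nearest to an earlier TET1 region. Regions on the mitochondrial genome and those at former CTCF sites were named after their values were seen. Members and rules were chosen with earlier results of these data known.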

Additional observations from a re-analysis of the deposited data

How the results depend on the processing

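No paired analysis was possible because each list pools the 3 samples of a group, and for the same reason no replicate could be left out. Of 58 values under other settings, 35 stayed within the 95% interval of the reported value and 23 moved outside it. The share of TET1 regions kept, 0.222%, was 0.0788% at −log10 q of at least 5, 0.0756% at −log10 q of at least 10, 0.0611% at a fold of at least 5, 4.0% between equal numbers of regions by −log10 q, and 0.131% without regions of fold under 3 in either list, a setting chosen after seeing the data. The median width of new regions, 191 bp, became 211 bp and 172 bp when −log10 q or fold had to reach 5. The share of lost regions with a neighbour within 10 kb, 24.7%, moved to 22.6% and 20.1% under these 2 filters and to 26.3% with single rows. It was 3.99% within 1 kb and 80.1% within 100 kb. For new regions the 24.2% became 56.4%, 0% and 33.2% in those 3 settings, 12.1% within 1 kb, 32.9% within 100 kb and 2.84% without regions of fold under 3. The share of new regions near a chromosome end, 28.8%, became 34.8% with the filter on fold and 19.4% within 2 Mb. The share of new regions at former CTCF sites, 5.19%, moved to 2.69% where both regions had to overlap by 50%, and to 1.28% and 8.57% under the same filters on −log10 q and fold. Filters on fold or −log10 q remove regions from both lists, so a region counted as new may be one whose earlier partner was removed. The other causes were not tested. Read depth is unknown. In the list with IAA the median −log10 q was 3.07 and the lowest 1.31, so many of its regions stood near the limit of calling.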
